A study of Mus musculus with 6 samples.

Results

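The 8 genes described here encode the proteins that carry the T cell receptor signal from the membrane into the cell: the kinases Lck, Fyn, Zap70 and Prkcq, the adaptors Lat and Lcp2, and the effector proteins Plcg1 and Vav1. They were chosen by name for their place in the pathway, with earlier results of these data known. All 8 were found among the 27179 gene numbers of the count table. The 6 RNA-seq libraries come from cultured CD8+ T cells of gBT-I mice, whose transgenic T cell receptor recognises glycoprotein B of herpes simplex virus. In both groups, total spleen cells of gBT-I tg SPF mice were activated in culture with the peptide gB498-505 and LPS. Both received IL-2 on days 2 to 5, and both were harvested on day 6. The 3 control libraries had no other treatment, and the 3 butyrate libraries came from cultures given butyrate from day 3. The sources used here give no butyrate concentration, no age of the mice and no sorting step. The transgene gives the cells 1 shared receptor in place of the natural repertoire.

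When the receptor binds its peptide, the SRC family kinases Lck and Fyn phosphorylate the receptor's signalling chains, and the kinase ZAP-70 (Zap70) docks there and is activated. ZAP-70 phosphorylates the membrane adaptor LAT (Lat) and the cytosolic adaptor SLP-76 (Lcp2), which together hold the phospholipase PLC-gamma 1 (Plcg1) and the exchange factor VAV1 (Vav1) at the membrane. The phospholipase makes diacylglycerol, which recruits protein kinase C theta (Prkcq), and inositol trisphosphate, which releases calcium, while VAV1 drives actin remodelling. In CD8+ T cells this chain sets whether a target cell triggers killing and cytokine release. Butyrate, a fatty acid made by gut bacteria, inhibits histone deacetylases, and the comparison asks how its presence during the last days of culture alters gene expression in these cells.

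All 8 members had lower mean levels with butyrate than in control, and 6 of them fell: Lck, Fyn, Zap70, Lat, Lcp2 and Vav1 (edgeR's quasi-likelihood test, adjusted p of 0.000379 to 0.0307). No member rose. A fall here means an adjusted p under 0.05 over all 11740 genes tested, and 22.5% of those genes were lower by this rule and 23.5% were higher. Among the 4037 tested genes whose mean level lay within the members' own range, 59.9 to 508 CPM, 31.8% were lower. CPM is the read count of a gene relative to the total of its library, here scaled by the TMM method to make libraries comparable. The members' median log2 fold change was -0.44, against 0.00 over all genes tested. Since the members were chosen with earlier results known, these comparisons with all genes are a description. The falls were modest in size, from 74.9% of the control level for Vav1 to 53.8% for Lcp2. In 6 members, all 3 butyrate libraries lay below all 3 control libraries, as they did in 28.2% of all genes tested. These 6 were the called ones other than Zap70, together with Prkcq. In bulk libraries, fewer cells of a type and less RNA per cell cannot be told apart.

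**Figure D1:**
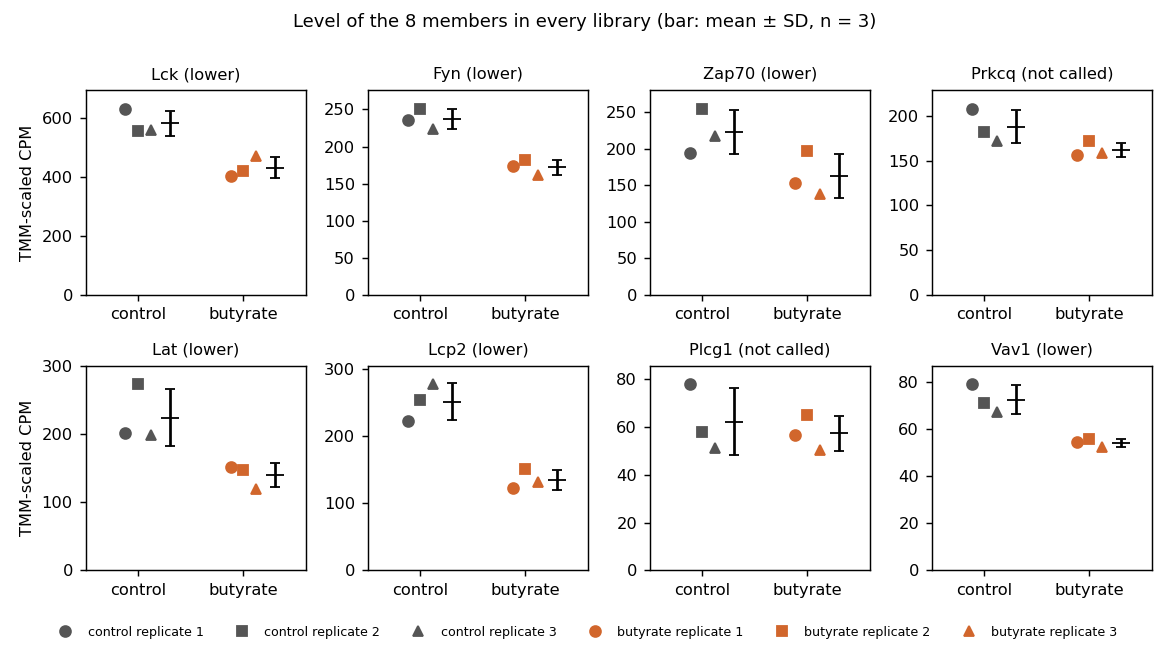
TMM-scaled CPM of the 8 members in each of the 6 libraries, 1 panel per gene, with grey symbols for control, orange symbols for butyrate, symbol shape for the replicate number, and a bar for the mean ± SD (n = 3). The orange symbols lie below all grey ones except in the panels of Zap70 and Plcg1, where the groups overlap.

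Library totals ran from 5383380 to 6244350 counts, so that 3 counts corresponded to 0.487 to 0.556 CPM. The members were far above that level, with 274 counts in the lowest library of Plcg1 and 3513 in the highest of Lck. The T cell markers Cd3e, Cd3d, Cd3g, Cd8a, Cd8b1, Cd2 and Trac were all detected, and their summed level was 3678 to 4218 CPM in control and 3472 to 4503 CPM with butyrate. Trac was the largest part of that sum (2063 CPM in control, 2552 CPM with butyrate, not called). Of the 7 log2 fold changes, 5 were below 0 and 2 above, so the sum does not show that each marker kept its level. The 10 macrophage and dendritic cell markers summed to 22.8 to 78.5 CPM in control and 86.4 to 97.6 CPM with butyrate, with Siglech at 0 counts. Itgam, which encodes the integrin chain CD11b, made up much of the butyrate sum (44.1 CPM, against 4.08 CPM in control). The 5 NK cell markers summed to 3.78 to 7.30 and 12.2 to 15.3 CPM, and the 4 CD4 T cell markers to 74.0 to 83.2 and 121 to 130 CPM. The NK cell sum came almost wholly from Klrb1c (3.39 CPM in control, 10.9 CPM with butyrate) and Tyrobp (1.43 and 3.02 CPM). Ncr1, Klra8 and Klra4 had at most 1 count in any library and were not tested. Most of the CD4 T cell sum came from Zbtb7b (69.8 CPM in control, 117 CPM with butyrate). Cd40lg, of the same list, had 7.27 and 4.85 CPM and was not called. The 8 B cell markers summed to 454 to 775 and 158 to 459 CPM, of which Ighm gave all but 15.0 to 20.4 and 13.5 to 22 CPM, with Pax5 at 0 counts. The part that other cells play in the members' changes was not tested. Of the 7 T cell markers, 0 were higher and 1 (Cd3e) was lower, against 23.5% higher and 22.5% lower over all genes tested. The tested markers of the other cells were higher in 2 of 3 for CD4 T cells and 1 of 3 for B cells. They were higher in 1 of 5 for macrophages and dendritic cells and 2 of 2 for NK cells. Some of these, such as Cd4 (0.608 CPM in control, 4.63 CPM with butyrate) and Cd22 (0.696 and 4.04 CPM), were near the floor in control and could be tested only through the butyrate libraries, so these counts are a description.

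The promoters of the 3 members with the largest estimated falls differ widely in base composition, and they are shown here for that reason. The third place of Fyn (-0.46) is not resolved from Zap70 (-0.45), Lck (-0.43) and Vav1 (-0.42). The CG counts of those promoters are given below. RefSeq promoters on GRCm38.p6, the assembly behind mm10, cover 250 bases before to 50 bases after a start site, and 11 of them matched the 8 members. Capitals mark the letters GGAAG, the core of ETS factor motifs, and TGTGGT, a RUNX motif, on either strand, and each sequence runs 5′ to 3′ along the gene. The Lcp2 promoter (chr11:34046678-34046977, plus strand) holds 0 CG dinucleotides, the Lat promoter (chr7:126369519-126369818, minus strand) 10 and the Fyn promoter (chr10:39369549-39369848, plus strand) 31.
Lcp2: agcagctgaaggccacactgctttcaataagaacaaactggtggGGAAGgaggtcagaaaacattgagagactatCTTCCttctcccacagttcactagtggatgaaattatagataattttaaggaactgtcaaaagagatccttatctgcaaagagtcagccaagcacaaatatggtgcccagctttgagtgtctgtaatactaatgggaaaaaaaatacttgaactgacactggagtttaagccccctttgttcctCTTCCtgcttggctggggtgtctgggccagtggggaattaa
Lat: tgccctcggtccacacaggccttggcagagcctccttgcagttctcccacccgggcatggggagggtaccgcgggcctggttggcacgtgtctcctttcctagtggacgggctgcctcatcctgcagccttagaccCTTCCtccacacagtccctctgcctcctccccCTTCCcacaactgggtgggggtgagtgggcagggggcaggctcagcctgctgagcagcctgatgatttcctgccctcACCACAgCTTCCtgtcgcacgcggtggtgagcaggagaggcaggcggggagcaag
Fyn: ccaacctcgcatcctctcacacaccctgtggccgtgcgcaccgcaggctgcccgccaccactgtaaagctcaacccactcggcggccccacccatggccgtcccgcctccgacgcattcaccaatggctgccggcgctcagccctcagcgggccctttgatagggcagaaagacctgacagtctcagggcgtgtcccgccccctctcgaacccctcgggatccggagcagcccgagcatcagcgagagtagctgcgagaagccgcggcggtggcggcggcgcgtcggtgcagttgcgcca

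The median over 32851 RefSeq promoters was 7 CG dinucleotides. Of the other members, Prkcq had 37, Plcg1 27 and Vav1 11, while the 2 promoters of Lck had 7 and 5 and the 3 of Zap70 had 8, 5 and 9. The members thus held both CG-rich and CG-poor promoters, and the 3 CG-rich ones (Prkcq, Fyn and Plcg1) included both members that were not called. The ETS core GGAAG stood in 8 of the 11 promoters (72.7%, against 71.4% of all promoters), and in 6 of the 8 members. The RUNX letters TGTGGT stood in 3 (27.3%, against 16.8%), in Lck, Zap70 and Lat. The GC box GGGCGG stood in 5 (45.5%, against 35.7%). The E-box CAGCTG stood in 1 (9.09%, against 16.3%), and so did the cyclic AMP response element TGACGTCA (against 1.79%). The NFAT core GGAAAA stood in 2 (18.2%, against 23.4%) and the AP-1 letters TGAGTCA in 0 (against 5.20%). Both strands were searched, and the only overlap was 1 base shared by an ETS and an NFAT match in Zap70.

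Lck, the SRC family kinase bound to the CD8 coreceptor, was the most abundant member. Gene positions here and below are those of RefSeq on GRCm38.p6. Lck (gene 16818, chromosome 4, 129548344 to 129573641) had 632, 558 and 560 CPM in the control libraries and 402, 421 and 473 CPM in the butyrate libraries. The lowest control library was above the highest butyrate library, and the log2 fold change was -0.43 (SE 0.0961, edgeR adjusted p = 0.00605). Lck stood at 63.6%, 75.4% and 84.5% of control in the 3 same-numbered pairs of libraries.

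Fyn, the other SRC family kinase of the T cell receptor (gene 14360, chromosome 10, 39369743 to 39565381), had 236, 251 and 224 CPM in control and 174, 182 and 161 CPM with butyrate. The groups did not overlap, and the log2 fold change was -0.46 (SE 0.0845, edgeR adjusted p = 0.00238). Its promoter is the CG-rich one printed above. The fold was nearly the same in the 3 pairs, at 73.8%, 72.4% and 71.9% of control. The proportion of Fyn to Lck did not differ beyond the spread between libraries: the log2 ratio of Fyn to Lck counts was -1.30 ± 0.14 in control and -1.32 ± 0.20 with butyrate (SD, n = 3), with an exact two-sided permutation p of 0.800 (0.800 adjusted over 6 pairs of members).

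Zap70 encodes the kinase that binds the phosphorylated receptor chains and phosphorylates the adaptors. Zap70 (gene 22637, chromosome 1, 36761798 to 36782821) had 195, 255 and 218 CPM in control and 153, 197 and 138 CPM with butyrate. Butyrate replicate 2 lay just above control replicate 1, so the groups overlapped, although each butyrate library was below the control library of its own number, at 78.4%, 77.1% and 63.4%. The log2 fold change was -0.45 (SE 0.145, edgeR adjusted p = 0.0307). This call did not hold in several fits without 1 library, although the estimate changed little in some of them. It was lost without control replicate 2 (-0.34, adjusted p = 0.117), control replicate 3 (-0.46, 0.0618), butyrate replicate 1 (-0.41, 0.0780) or butyrate replicate 3 (-0.35, 0.0916). It was also lost with upper quartile scaling (-0.37, 0.0624), within an adjusted p of 0.00182 to 0.117 over 14 alternatives. The lowest of these came from the edgeR fit with the replicate number as a block (-0.46, adjusted p = 0.00182).

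Prkcq, the diacylglycerol-dependent kinase that feeds the NF-kB branch, was not called. Prkcq (gene 18761, chromosome 2, 11171905 to 11301226) had 208, 182 and 172 CPM in control and 156, 172 and 159 CPM with butyrate. The highest butyrate and lowest control libraries were almost level. The log2 fold change was -0.21 with a 95% interval of -0.42 to 0.00 (edgeR adjusted p = 0.0992). The interval runs from a fall about the size of that of Lck to no change, so the data do not show that Prkcq kept its level.

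The adaptors showed the largest falls. Lcp2 encodes SLP-76, the cytosolic scaffold that binds VAV1 and the phospholipase complex, and its promoter is the one printed above with no CG dinucleotide. Lcp2 (gene 16822, chromosome 11, 34046928 to 34092281) had 222, 253 and 277 CPM in control and 122, 151 and 132 CPM with butyrate. Every butyrate library was far below every control library, and the log2 fold change was -0.89 (95% interval -1.15 to -0.64, SE 0.113, edgeR adjusted p = 0.000379). Only 4.58% of tested genes had a lower log2 fold change than Lcp2. An exon of 4930469K13Rik overlaps 282 bases of Lcp2 exons on the opposite strand. No source used here says whether reads were counted by strand, so reads from that stretch cannot be assigned.

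Lat encodes the membrane adaptor whose tyrosines, once phosphorylated, collect the signalling complex. Lat (gene 16797, chromosome 7, 126363827 to 126369705) had 201, 273 and 199 CPM in control and 152, 148 and 120 CPM with butyrate. Control replicate 2 stood above the other controls, and all butyrate libraries lay below the lowest control. The log2 fold change was -0.68 (SE 0.143, edgeR adjusted p = 0.00471), and 8.59% of tested genes had a lower one. It was -0.51 at its smallest over the alternatives, and Lat was called in 14 of 14. The log2 ratio of Lcp2 to Lat was 0.17 ± 0.29 in control and -0.05 ± 0.24 under butyrate (SD, n = 3). The exact permutation p was 0.400 (adjusted 0.600), so a difference between the falls of these adaptors was not resolved.

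Plcg1, the phospholipase that the adaptors bring to the membrane, was not called, and its control libraries varied widely. Plcg1 (gene 18803, chromosome 2, 160731310 to 160775760) had 77.9, 57.9 and 51.1 CPM in control and 56.6, 65.2 and 50.6 CPM with butyrate. The groups overlapped, and the control libraries had a coefficient of variation of 22.4%, where counting error alone gives 5.32%. The log2 fold change was -0.11 with a 95% interval of -0.48 to 0.25 (edgeR adjusted p = 0.591). Its sign turned on control replicate 1, without which it was 0.09 (adjusted p = 0.622). Exons of Zhx3 and Gm27206 overlap 379 and 248 bases of Plcg1 exons on the opposite strand. Zhx3 itself was not called, at 19.1 CPM in the control and 21.0 CPM in the butyrate libraries (edgeR adjusted p = 0.525).

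Vav1, the exchange factor for RAC GTPases that binds SLP-76, fell with little spread. Vav1 (gene 22324, chromosome 17, 57279100 to 57329236) had 79.0, 71.2 and 67.2 CPM in control and 54.6, 55.7 and 52.5 CPM with butyrate. The butyrate libraries differed by less than counting error gives (coefficient of variation 3.01%, against 5.76% from counting) and lay below all controls. The log2 fold change was -0.42 (SE 0.0907, edgeR adjusted p = 0.00553). The log2 ratio of Vav1 to Lcp2 moved from -1.79 ± 0.28 to -1.31 ± 0.14, with no overlap between the groups (SD, n = 3, exact permutation p = 0.1, the smallest that 3 against 3 libraries can give, adjusted 0.300). The log2 ratio of Prkcq to Vav1 also moved without overlap, from 1.37 ± 0.02 to 1.58 ± 0.05 (exact p = 0.1, adjusted 0.300). That of Plcg1 to Lat was -1.85 ± 0.44 and -1.28 ± 0.13 (exact p = 0.200, adjusted 0.400), and that of Zap70 to Lck -1.39 ± 0.28 and -1.42 ± 0.34 (exact p = 0.800, adjusted 0.800).

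**Figure D2:**
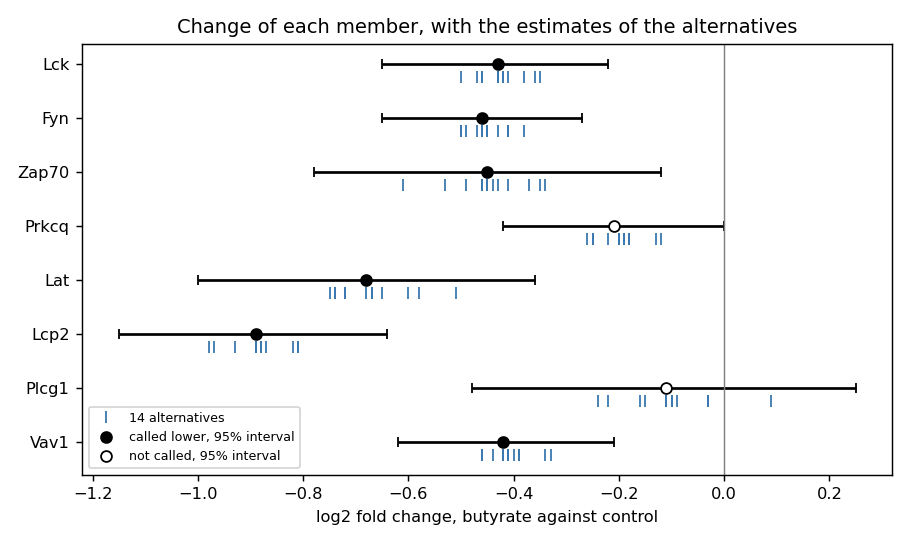
Log2 fold change of each member, butyrate against control, with its 95% interval (filled circles called lower, open circles not called) and, as blue ticks, the estimates under 14 alternatives. Lcp2 and Lat lie farthest to the left at -0.89 and -0.68, the ticks of Plcg1 reach 0.09, and those of the other 7 members all lie below 0.

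Levels of different genes can be compared only per length, and for this the CPM were divided by the length of all annotated exons of a gene. In control the order was Lck (199 ± 14.5 CPM per kb), Lat (81.1 ± 15.1), Zap70 (74.5 ± 10.1), Lcp2 (56.2 ± 6.24), Fyn (54.3 ± 3.12), Prkcq (26.5 ± 2.63), Vav1 (19.7 ± 1.64) and Plcg1 (7.93 ± 1.78, SD, n = 3). Lat and Zap70 overlapped in their ranges, as did Lcp2 and Fyn, and the other neighbours did not. With butyrate, Zap70 (54.4 ± 10.1 CPM per kb) stood beside Lat (50.6 ± 6.28), with ranges that overlapped, and Fyn (39.5 ± 2.38) stood above Lcp2 (30.2 ± 3.35) with no overlap. The first member and the last 3 held their places in both groups. Transcripts of a gene differ in length, so this order is approximate.

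**Figure D3:**
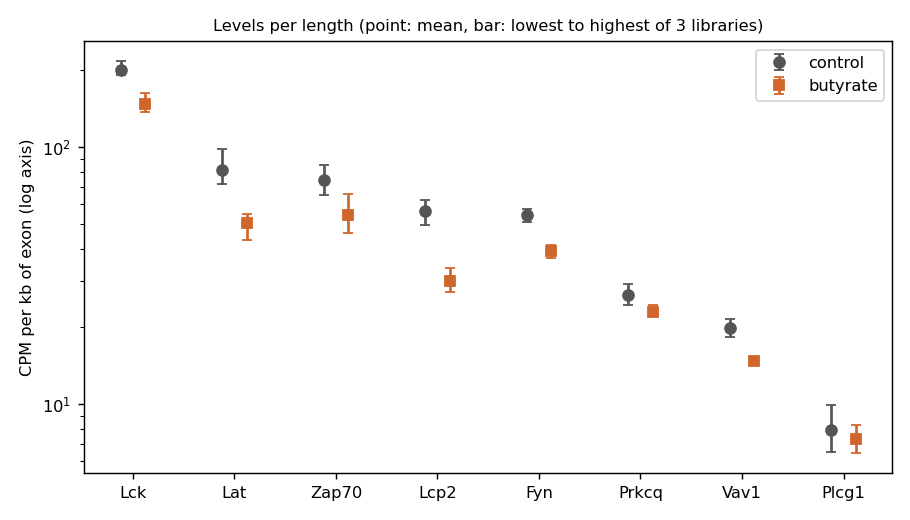
CPM per kb of exon on a log axis for the 8 members in control (grey circles) and butyrate (orange squares), with the mean and a bar from the lowest to the highest of 3 libraries. Lck is highest in both groups (199 and 147 CPM per kb) and Plcg1 lowest (7.93 and 7.31 CPM per kb).

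The genes whose profile over the 6 libraries was nearest to each member were sought among 9023 named genes that averaged at least 10 CPM, as the smallest root mean square difference of log2 CPM after each gene was centred on its own mean. They were Mbnl2 for Lck (0.0420 on the log2 scale), Gtf3c3 for Fyn (0.0188), Zfp39 for Zap70 (0.0360) and Fbxl17 for Prkcq (0.0304). They were Mitd1 for Lat (0.0600), Rock1 for Lcp2 (0.0643), Mrpl2 for Plcg1 (0.0734) and Akna for Vav1 (0.0106). The members themselves were left out of this search, and none of the genes found stands on the pathway lists described next. Within the 8, Fyn and Vav1 had the most similar profiles (0.0786), while Lcp2 was 0.245 from its nearest fellow, Lat.

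The receptor chains lie upstream of the members. Of 10 receptor and coreceptor chain genes, all tested, 3 fell and 0 rose, against 22.5% lower and 23.5% higher over all genes, and the median log2 fold change was -0.06. Cd3e and Cd247 (the zeta chain), whose tails Lck phosphorylates, fell by 0.61 and 0.62 on the log2 scale (edgeR adjusted p = 0.000816 and 0.000401), from 314 ± 27.4 to 206 ± 10 CPM and from 327 ± 14.4 to 213 ± 9.08 CPM (SD, n = 3). The beta chain constant gene Trbc1, a near copy of Trbc2, went from 262 ± 44.8 to 107 ± 5.89 CPM. Trbc2, the far more abundant copy, had 1674 ± 106 and 1828 ± 206 CPM and was not called (0.13, edgeR adjusted p = 0.357). The fall of Trbc1 is therefore not a fall of both copies. The split between the copies is uncertain, since no source used here says how reads common to both were counted. With the replicate number as a block, Cd3g was also lower (-0.86, adjusted p = 0.000866, against -0.90 and 0.0575 without) and Trac higher (0.30, 0.0287, against 0.31 and 0.191). Without butyrate replicate 1, 5 of the 10 were lower, with Cd3d (-0.46, adjusted p = 0.00436) and Cd3g (-1.25, 0.0180) added. Cd3g, Cd3d, Trac and Trbc2 were chosen after their values were seen.

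Partners and positive regulators of the members fell more often than they rose. Of 36, all tested, 17 fell and 5 rose (22.5% and 23.5% over all genes), with a median log2 fold change of -0.24. Fyb, which encodes the adaptor ADAP that SLP-76 and Fyn bind, went from 177 ± 12.5 to 75.9 ± 14.3 CPM (SD, n = 3, log2 fold change -1.22, edgeR adjusted p = 0.000178). Pik3r1, a regulatory subunit of PI3 kinase, went from 177 ± 6.78 to 117 ± 6.11 CPM. Bcl10, which acts after protein kinase C theta, went from 85.0 ± 2.76 to 56.9 ± 2.08 CPM, and the adaptor gene Shc1 from 142 ± 6.69 to 92.6 ± 9.33 CPM. Among those that rose, the Tec family kinase gene Tec went from 18.9 ± 2.48 to 35 ± 6.11 CPM, and Themis, a T cell signalling adaptor gene, from 397 ± 15.8 to 543 ± 62.1 CPM. Grb2, the adaptor that links LAT to RAS activation, and Unc119, which encodes an activator of SRC family kinases, rose by log2 fold changes of 0.33 and 0.44.

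Negative regulators fell in 20 of 38, all tested, and rose in 5 (22.5% and 23.5% over all genes), with a median log2 fold change of -0.39. Dok2, which encodes an adaptor that dampens signalling, fell from 302 ± 47.0 to 105 ± 17.9 CPM (SD, n = 3, log2 fold change -1.52, edgeR adjusted p = 0.000115). Ptpn6, which encodes the phosphatase SHP-1, went from 183 ± 37.3 to 88.9 ± 6.06 CPM, and the membrane adaptor gene Lax1 from 163 ± 15.6 to 96.4 ± 4.66 CPM. Spry2, an inhibitor of RAS signalling, fell from 21.5 ± 0.773 to 10.9 ± 0.497 CPM, whereas its paralog Spry1 rose from 8.0 ± 1.66 to 20.8 ± 4.24 CPM. Ubash3b, a phosphatase of the Sts family that acts on ZAP-70, went from 29.8 ± 4.29 to 60.0 ± 4.30 CPM. Spred2 and the cytokine signalling inhibitor gene Socs3 both rose by a log2 fold change of 1.03. Genes that promote and genes that restrain the pathway thus both held more members that fell than members that rose.

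None of the tested close relatives of the members fell. Of 18 paralogs, 15 passed the filter on low counts, and 7 of these rose and 0 fell (23.5% and 22.5% over all genes). A gene almost silent in control could pass the filter only through the butyrate libraries, so the 8 paralogs with a control mean of at least 10 CPM are given on their own: 4 rose and 0 fell, with a median log2 fold change of 0.32. Plcg2, the phospholipase better known from B cells and myeloid cells, had 14, 18.2 and 21.7 CPM in control and 33.7, 37.7 and 34.4 CPM with butyrate (log2 fold change 0.97, edgeR adjusted p = 0.00120). Prkch, which encodes protein kinase C eta, a relative of theta, had 231, 275 and 273 CPM in control and 368, 440 and 391 CPM with butyrate (0.62, adjusted p = 0.00143). Both genes had groups that did not overlap. Prkcb rose by 0.55 on the log2 scale, and Vav3, chosen after its values were seen, by 0.48 (adjusted p = 0.0197). The call of Vav3 was lost without control replicate 1 (0.45, adjusted p = 0.0542), without butyrate replicate 3 (0.40, 0.0694) and with DESeq2 (0.49, 0.0720).

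Prkca (74.4 ± 2.17 and 67.2 ± 1.83 CPM, SD, n = 3), Prkcd (37.3 ± 3.07 and 33.2 ± 0.729 CPM) and Prkce (14.4 ± 0.515 and 16.2 ± 3.08 CPM) were not called. In Prkca and Prkcd every butyrate library lay below every control library, as in 28.2% of all genes tested. Src had 13 counts in the control libraries together and 93 in the butyrate libraries (0.760 ± 0.199 and 5.62 ± 1.27 CPM, SD, n = 3, edgeR adjusted p = 0.000313). Syk, the relative of Zap70 in B cells and myeloid cells, had 5.14 ± 1.45 and 8.11 ± 2.17 CPM and was not called (log2 fold change 0.64, adjusted p = 0.0963), but was called with the replicate number as a block (0.66, 0.0165). Lat2 was not called either (25.6 ± 8.08 and 27.4 ± 7.31 CPM, adjusted p = 0.787). Blnk, the B cell counterpart of Lcp2, had 7 counts in all control and 0 in all butyrate libraries, and it was not tested, nor was Blk (17 and 13 counts). Clnk, another relative of Lcp2, went from 2.94 ± 0.464 to 6.50 ± 2.0 CPM and Vav2 from 3.31 ± 0.745 to 5.95 ± 0.295 CPM (adjusted p = 0.0119 and 0.0183), both chosen after their values were seen. The call of Clnk was lost without butyrate replicate 2 (0.89, 0.0510). That of Vav2 was lost without control replicate 3 (0.70, 0.0648), butyrate replicate 1 (0.81, 0.0520) or butyrate replicate 2 (0.86, 0.0501), and with DESeq2 (0.86, 0.0598). Plcg2 and Syk are also expressed by the other cell types whose marker sums are given above.

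**Figure D4:**
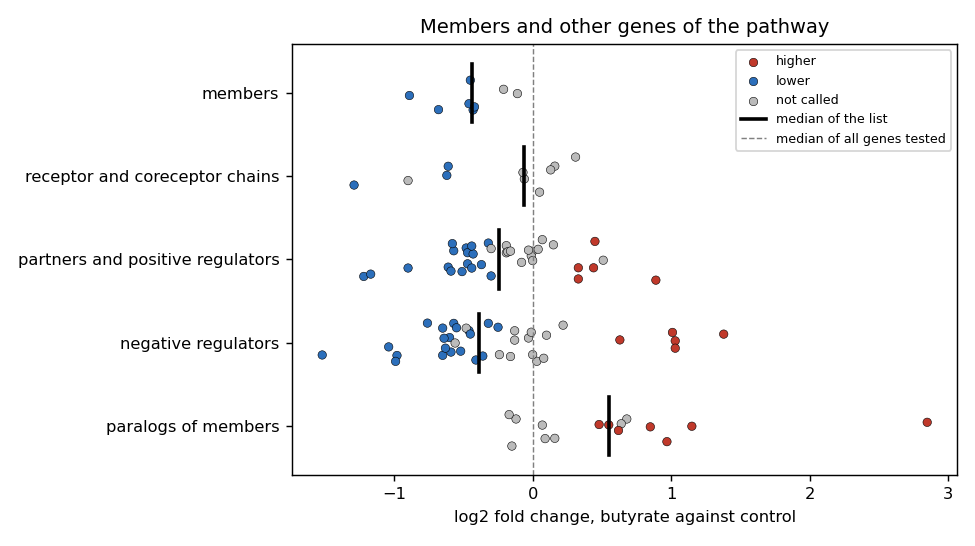
Log2 fold change of every tested gene in 5 lists, with red points for genes called higher, blue for lower and grey for not called, a black line at the list's median and a dashed line at the median of all genes tested. The members and the negative regulators have medians of -0.44 and -0.39, while the paralogs have no blue point.

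Within each protein family, the member's share of the summed level per length was compared with that of its relatives, a comparison chosen after the values were seen. Plcg1 made up 75.2%, 63.5% and 56.3% of the gamma phospholipase level in the control libraries and 47.9%, 48.6% and 44.6% in the butyrate libraries, with Plcg2 as the remainder. All butyrate shares were thus below all control shares, although Plcg1 itself was not called, and the shift in the share of Plcg2 was 17.9 percentage points (12.8 without control replicate 1). Vav1 went from 88.8% ± 1.14 to 80.1% ± 1.56 of the VAV factors (SD, n = 3) and Lcp2 from 96.9% ± 0.698 to 89.1% ± 1.94 of the SLP adaptors. Prkcq went from 28.2% ± 2.83 to 19.9% ± 0.339 of 6 protein kinase C genes, while Prkch went from 36.7% ± 3.42 to 46.1% ± 1.94. Each of these shares had an exact permutation p of 0.1, the smallest possible, and an adjusted p over 26 shares of 0.153.

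Lck, Zap70 and Lat had the largest share of their families in both groups, as did Vav1 and Lcp2. Lck made up 77.2% ± 1.63 of the level of 8 SRC family genes in control and 76.4% ± 1.66 under butyrate (SD, n = 3, exact p = 0.5), and Fyn 21.1% ± 1.6 and 20.6% ± 2.30 (exact p = 0.800). Zap70 made up 99.2% ± 0.273 of the summed level of Zap70 and Syk in control and 98.4% ± 0.679 with butyrate (exact p = 0.1). Lat made up 88.9% ± 4.33 and 82.7% ± 5.54 of the LAT adaptors, with overlap between the groups (exact p = 0.200). It was lower with butyrate in 3 of 3 same-numbered pairs, at 89.2% and 84.0%, 93.2% and 87.5%, and 84.5% and 76.6%.

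**Figure D5:**
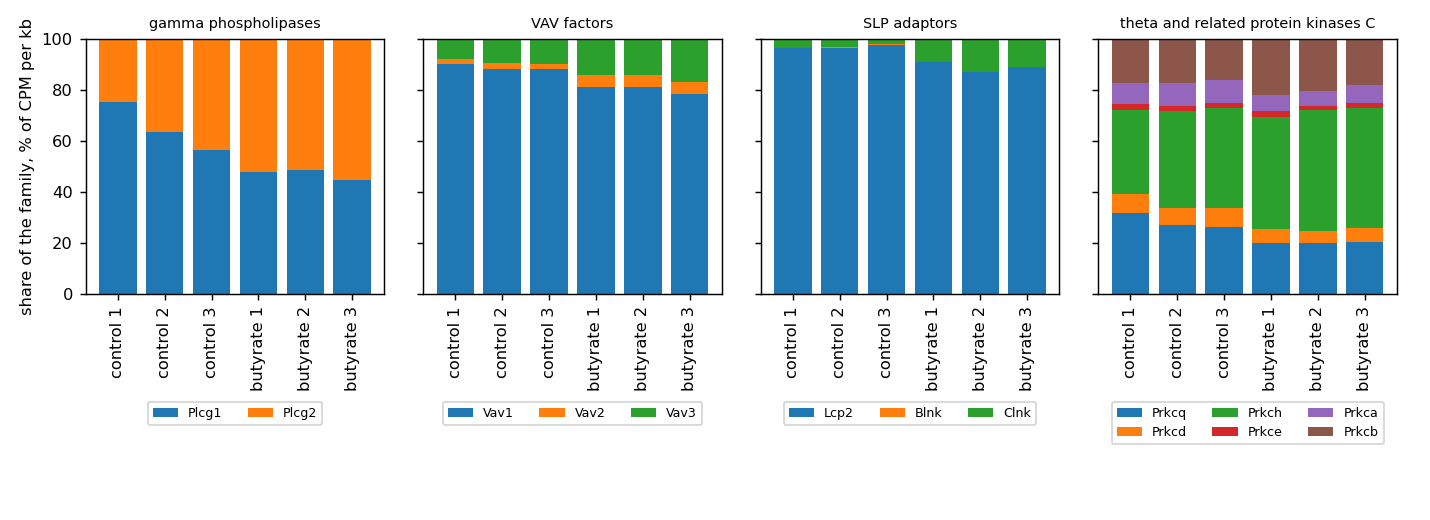
Share of each gene in the summed CPM per kb of its family, as stacked bars from 0 to 100% for each of the 6 libraries, in 4 families. The lowest segment (Plcg1, Vav1, Lcp2 and Prkcq) is shorter in every butyrate library than in every control library.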

How the data were processed

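For the 6 libraries the authors deposited raw counts of reads per gene, keyed by Entrez gene number. Per the labels' protocols, RNA was taken up in Trizol and 1 µg of total RNA entered a TruSeq library kit. Per the submitters' processing notes, the tools included TopHat, featureCounts of Subread, CASAVA, Picard and edgeR, and the build was mm10. No source used here gives their versions, a strand setting or a rule for shared reads. Columns were matched to samples by the names in the labels. Of 27179 gene numbers, 25275 were named from a RefSeq table of GRCm38.p6, 18 from GENCODE and 1886 not at all (0.961% to 1.20% of a library's counts, kept in the tests).

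Control and butyrate libraries were compared by the quasi-likelihood test of edgeR (edgeR 4.0.16, R 4.3.3) with TMM scaling, the filterByExpr filter and Benjamini-Hochberg adjustment over all 11740 genes that passed. All 8 members passed. The script was tested on simulated data. Each standard error is the absolute log2 fold change over the root of its F statistic, and 95% intervals use the test's own degrees of freedom. Levels are means ± SD of TMM-scaled CPM, ratios of members use a prior count of 0.5, and log2 CPM for nearest profiles a prior count of 2. Exon lengths are unions over GENCODE M21 transcripts. Protein sequences were not used here, so the planned protein comparison was left out.

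The members and lists were chosen with earlier results of these data known. Genes named are the 8 members, up to 4 called genes per direction and list with the smallest p, and Syk, Lat2, Blnk and Plcg2 whatever they showed. Also named are the gene of nearest profile per member and genes said to be chosen later. Some genes on the lists are not reported here. Within each group the libraries differed beyond sampling noise (chi-square of 5.43 to 10.6 per degree of freedom, over genes of at least 20 counts) and entered as separate replicates. No label ties them to different mice or cultures, so p-values reflect only how these samples vary, which may be technical variation. Control and butyrate libraries share replicate numbers, and deviations from the group means correlated at 0.36, 0.20 and 0.35 in the 3 same-numbered pairs, so the numbers were taken to pair the libraries. The fit without the block is the main one, and the exact permutation tests do not use the pairing either. Alternatives were scaling by total count, RLE or upper quartile, no filter, a stricter filter (5 CPM or more in 3 libraries), DESeq2 1.42.0, voom of limma 3.58.1, the block, and each library left out in turn. The intervals include the variation between libraries, while the floor of 3 counts covers counting error only.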

Additional observations from a re-analysis of the deposited data

How the results depend on the processing

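Under all 14 alternatives, 0 members were called higher, and Lck, Fyn, Lat, Lcp2 and Vav1 were called lower. Prkcq and Plcg1 were called in none, and Zap70 in 9 of 14. The members' median log2 fold change lay between -0.48 and -0.36. With the replicate block, members called lower stayed at 6 with a median log2 fold change of -0.45, and of the receptor and coreceptor chains 1 was called higher, where the unblocked fit called 0. Besides Syk, Cd3g and Trac, the block changed no call among the members, receptor chains, genes of nearest profile and pathway genes followed singly. Over the whole lists, the block called 9 paralogs higher, against 7 in the unblocked fit. It called 6 partners and positive regulators higher and 19 lower, against 5 and 17. Of the negative regulators it called 23 lower, against 20. Leaving out single libraries gave 3 to 5 receptor chains called lower, with 5 without butyrate replicate 1. The sign of the log2 fold change turned, with no call on either side, for Plcg1 without control replicate 1 (0.09), for Lat2 without control replicate 2 (-0.08) or butyrate replicate 3 (-0.12), and for Mrpl2 without a filter (-0.03), without control replicate 2 (-0.03) or 3 (-0.13), or without butyrate replicate 2 (-0.06). Of the receptor chains, Cd3d (0.05), Cd8a (-0.06) and Cd8b1 (-0.07) also lay close to 0 and changed sign in some alternatives. Over the fits without 1 library, the log2 fold change ran from -0.24 to 0.09 for Plcg1, from -0.12 to 0.38 for Lat2 and from -0.13 to 0.23 for Mrpl2. The cause was not tested. Upper quartile scaling moved the share of higher genes among all calls from 51.1% to 61.8% and the median of all genes to 0.09. For Plcg1, spread between the control libraries, with a coefficient of variation of 22.4% against 5.32% from counting, limits the precision more than depth does.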
